A study of Rattus norvegicus with 12 samples.

Results

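The serpins, a family named for its serine protease inhibitors, were followed at the messenger RNA level in the rat prostate after partial obstruction of the bladder outlet and treatment with Eviprostat. Members were array genes whose name begins with Serpin, each represented by its brightest probe. The results cover 32 such genes, of 15625 named genes on the array, and 28 of them, of 14643 named genes, kept a probe after a filter that asked for Cy5 signal well above background on 3 or more of the 12 arrays. By clade, the family's lettered subdivisions, the 28 comprised 8 genes of clade A, 12 of B, 1 of C, 1 of E, 2 of F, 1 of G, 1 of H and 2 of I. Serpina9, Serpina10, Serpinb13 and Serpind1 did not pass that filter and were not tested. A serpin that carries another name on the array was not counted.

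Each of the 4 groups was measured on 3 two-colour Agilent arrays, and all animals were male rats of 10 weeks. The obstruction/Eviprostat and obstruction/vehicle groups had the urethra narrowed by a tied rubber ring close to the bladder, while the sham/Eviprostat and sham/vehicle groups had a sham operation. Eviprostat, a plant-derived preparation used for benign prostatic hyperplasia, was given at 18 mg/kg, 2 times a day (36 mg/kg daily). Vehicle was 0.1% Tween 80. Treatment lasted 5 days and prostates were taken 2 h after the last dose. Dosing began the day after surgery in obstructed rats and 5 days after it in sham rats, so the interval since the operation differs along with the operation itself. A group held 5 or 6 animals whose tissue was pooled, so each p-value measures the spread between arrays and not between animals. In such tissue RNA, fewer cells of a type and less RNA per cell cannot be told apart. As a check on the tissue, all 12 listed prostate epithelium markers were well above background on every array of obstruction/Eviprostat, obstruction/vehicle and sham/vehicle, and 11 of 12 were on every sham/Eviprostat array. Of these 12, 1 was higher and 6 were lower in obstruction/vehicle than in sham/vehicle, and their mean log2 ratio ran from 0.08 to 0.28 on obstruction/Eviprostat, -0.43 to -0.34 on obstruction/vehicle, -0.02 to 0.08 on sham/Eviprostat and -0.01 to 0.05 on sham/vehicle. In the same comparison of obstruction/vehicle with sham/vehicle, 12.8% of all probes were higher and 8.58% lower.

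Most serpins inhibit serine proteases by offering a reactive loop as bait: the protease cuts the loop, stays bound to it, and is distorted and disabled as the serpin snaps into a new fold. Clade A serpins are mostly secreted plasma proteins, clade B serpins mostly lack a signal peptide and work inside cells, and clades C to G include the inhibitors of clotting, fibrinolysis and complement. Several members carry no inhibitory role, among them the hormone carriers Serpina6 and Serpina7 and the collagen chaperone Serpinh1. Serpina5, the protein C inhibitor, acts on activated protein C, thrombin, plasminogen activators and kallikreins, and in humans is secreted by the seminal vesicle into semen.

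Each value below is the signal of 1 oligonucleotide of 60 bases, and the probes that carry the main results are shown here, including both probes of Serpine2 and Serpinf2, whose probes differed in size or call.
Serpina5: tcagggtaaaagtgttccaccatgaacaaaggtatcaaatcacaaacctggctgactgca
Serpina3n: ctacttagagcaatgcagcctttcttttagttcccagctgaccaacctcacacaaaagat
Serpinb1a: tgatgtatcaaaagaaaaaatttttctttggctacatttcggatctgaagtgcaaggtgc
Serpinb11: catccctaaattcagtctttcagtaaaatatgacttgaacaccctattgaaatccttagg
Serpinb7: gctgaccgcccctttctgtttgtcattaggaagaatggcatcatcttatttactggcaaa
Serpine2 main probe: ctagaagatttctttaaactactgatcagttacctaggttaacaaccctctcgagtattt
Serpine2 other probe: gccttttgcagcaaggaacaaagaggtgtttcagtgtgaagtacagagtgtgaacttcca
Serpinf2 main probe: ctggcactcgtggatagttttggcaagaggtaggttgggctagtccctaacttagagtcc
Serpinf2 other probe: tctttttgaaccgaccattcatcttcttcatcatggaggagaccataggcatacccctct
Serpinh1: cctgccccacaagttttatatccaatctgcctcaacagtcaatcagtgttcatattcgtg
On rat build rn3 (positions per the array design) the Serpina5 probe lies at chr6:128164924-128164983, Serpina3n at chr6:128472944-128473003, Serpinb1a at chr17:37959596-37959655, Serpinb11 at chr13:13408691-13408750, Serpinb7 at chr13:13506298-13506357 and Serpinh1 at chr1:156745320-156745352, a listed span shorter than the probe. Serpinh1 and both probes of Serpine2 and Serpinf2 are on the minus strand and the others on the plus strand. The 2 Serpine2 probes lie at chr9:79275281-79275340 for the main one and chr9:79297474-79297533 for the other. Those of Serpinf2 lie at chr10:62762122-62762181 for the main one and chr10:62762577-62762636 for the other. Exons of that build were not used here. Among all 696 pairs of probes for different serpins, the longest run of identical bases on either strand was 10.

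Each array gave a log2 ratio of Cy5, the dye of the group's own RNA, over Cy3, the dye of sham/vehicle RNA on every array. Differences between groups are differences of these log2 ratios, tested with limma and adjusted over all 36098 tested probes at a threshold of 0.05, and each comes with its standard error. Cy5 was well above background at 70.9% to 88.4% of spots, and the 4 arrays of slide 1 were dimmer than the others. On 3 arrays a few spots read more than 100 units below their own local background (4 on obstruction/Eviprostat replicate 1, 6 on obstruction/vehicle replicate 2 and 2 on sham/vehicle replicate 1). The scanner software had marked all of them as background outliers, and spots so marked were left out before background correction. With the marked spots kept in, 2583 probes were called higher and 1608 lower in obstruction/vehicle than in sham/vehicle, beside 4628 and 3098 without them. Where keeping these spots in ends a serpin's call, the value is given beside it.

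Obstruction under vehicle raised 11 of the 28 serpins and lowered 2, and 15 did not pass. Serpinb10, among the 11, met the filter only through the obstruction/vehicle arrays. Over all probes 12.8% were higher and 8.58% lower in obstruction/vehicle than in sham/vehicle. Under other scalings these shares changed: the log ratio of the scanner software gave 16.4% higher and 23.7% lower, and median centring gave 7.05% higher and 1.35% lower. For the serpins these settings gave 12 higher with 3 lower, and 8 higher with 0 lower. The median difference of the 28 serpins was 0.19, beside -0.01 over all probes. With the replicate block, in which each slide has a term of its own, 13 were higher and 2 lower, beside 20.7% and 18.3% of all probes: Serpinb6b at 0.57 (limma adjusted p = 0.00253) and Serpini1 at 0.35 (adjusted p = 0.0223) were added. Under Eviprostat the obstructed rats had 2 serpins higher and 11 lower than obstructed rats on vehicle, where 7.2% of all probes were higher and 11.7% lower. Log ratios as the scanner software gave them put 21.7% of probes higher and 15.8% lower with 6 and 12 serpins, and median centring 1.12% and 5.82% with 0 and 8 serpins. Both comparisons contain the same obstruction/vehicle arrays, so their values are given side by side and the mirror between them is no independent result.

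Serpina5 moved most of all members. Its log2 ratio was 0.16, 0.20 and 0.18 on the obstruction/Eviprostat arrays, 7.33, 7.06 and 6.96 on obstruction/vehicle, 5.70, 5.77 and 5.71 on sham/Eviprostat, and 0.58, 0.27 and 0.34 on sham/vehicle. The obstruction/vehicle and sham/Eviprostat arrays were thus high, the other 6 low, and neither high group overlapped another group. In raw signal, Cy5 minus local background was 115, 491 and 574 on obstruction/Eviprostat, 48704, 124281 and 147128 on obstruction/vehicle, 9246, 56099 and 64780 on sham/Eviprostat, and 158, 510 and 649 on sham/vehicle. No Serpina5 spot was saturated, and the probe was well above background on all 12 arrays. Cy3, which held the same sham/vehicle RNA everywhere, read 343, 328 and 416 on the obstruction/vehicle arrays against 160, 188 and 218 on the sham/vehicle arrays.

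The difference between obstruction/vehicle and sham/vehicle was 6.72 ± 0.11 for Serpina5 (limma adjusted p = 5.70e-12), a 105-fold difference and the 4th highest of 36098 probes. Obstruction/Eviprostat lay 6.93 ± 0.11 below obstruction/vehicle (difference -6.93, adjusted p = 3.91e-12), the 2nd lowest of all probes. Sham/Eviprostat lay 5.33 ± 0.11 above sham/vehicle (adjusted p = 9.49e-11), again the 4th highest. Between the groups on Eviprostat, the obstructed rats lay below the sham rats, with a difference of -5.54 ± 0.11 (adjusted p = 5.90e-11), the lowest of all probes. The effect of Eviprostat therefore had opposite signs in obstructed and sham rats, and its difference between them was -12.26 ± 0.16 (adjusted p = 2.58e-13). On Cy5 alone the 4 group differences were 7.59, -7.82, 5.74 and -5.97 in the same order.

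Markers of the seminal vesicle and coagulating gland, glands that adjoin the rat prostate, were also high in obstruction/vehicle and sham/Eviprostat. The mean log2 ratio of the 10 measured markers ran from 0.56 to 0.59 on obstruction/Eviprostat, 3.81 to 3.90 on obstruction/vehicle, 3.27 to 3.37 on sham/Eviprostat and 0.02 to 0.08 on sham/vehicle. Of these, 7 were higher in obstruction/vehicle than in sham/vehicle and 7 were higher in sham/Eviprostat than in sham/vehicle. In obstruction/Eviprostat 7 were lower than in obstruction/vehicle, and 7 were lower than in sham/Eviprostat. Of all probes, 12.8%, 1.3%, 11.7% and 1.78% were called in these directions, in the same order. In sham/vehicle 8 of the 10 were well above background on all 3 arrays and Svs7 on none. Their part in the Serpina5 result was not tested. Over the 12 arrays, the 5 genes whose log2 ratio ran most like that of Serpina5 were Klk1 (Pearson r = 0.995), Klk1c8 (0.994), Spink1l (0.993), Svs3a (0.991) and Klk1c9 (0.9896). These coefficients describe arrays that share groups and slides. Among the members the nearest were Serpine2 (0.85), Serpinb9e (0.75) and Serpina3n (0.73).

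**Figure D1:**
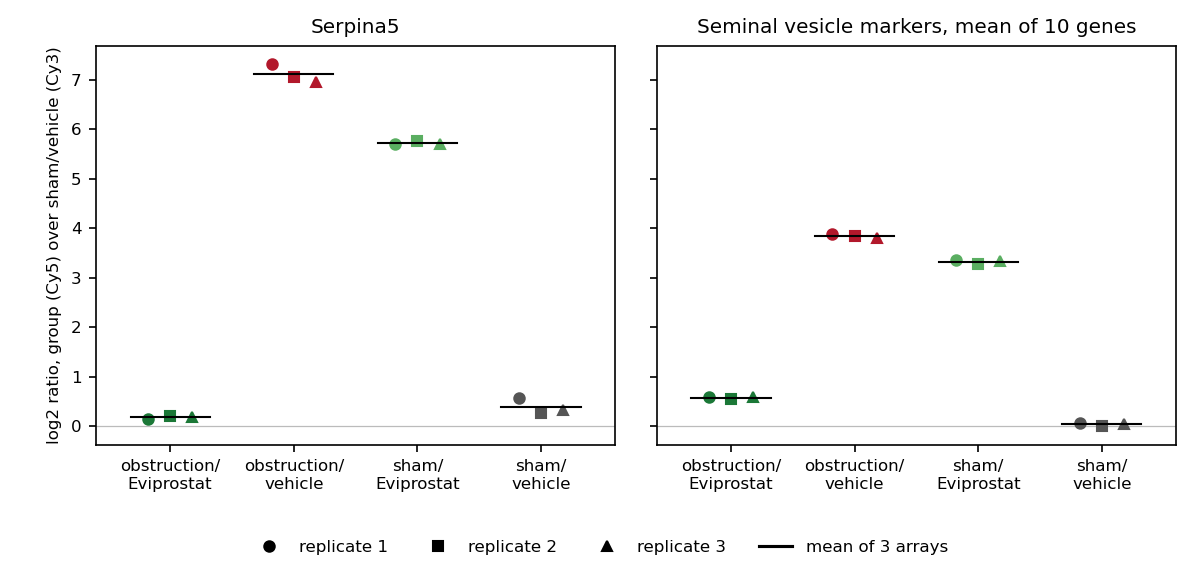
Log2 ratio of each group's RNA (Cy5) to sham/vehicle RNA (Cy3) on the 12 arrays, for Serpina5 on the left and as the mean of 10 seminal vesicle markers on the right; points are arrays, marked by replicate, and lines are means of 3 arrays. Serpina5 sits between 6.96 and 7.33 on obstruction/vehicle and 5.70 and 5.77 on sham/Eviprostat, and between 0.16 and 0.58 on the other 6 arrays.

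Clade A beyond Serpina5 held 1 more gene that obstruction raised, Serpina3n, an acute-phase serpin that inhibits granzyme B in the mouse. Its log2 ratio was 0.11, 0.24 and 0.11 on obstruction/Eviprostat, 2.90, 2.52 and 2.50 on obstruction/vehicle, 0.49, 0.22 and 0.13 on sham/Eviprostat, and 0.22, 0.21 and -0.04 on sham/vehicle. Only the obstruction/vehicle arrays were high, and they overlapped with no other group. Serpina3n rose by 2.51 ± 0.13 in obstruction/vehicle over sham/vehicle (adjusted p = 3.62e-08) and was lower under Eviprostat in obstructed rats by a difference of -2.49 ± 0.13 (adjusted p = 4.81e-08). In sham rats the drug's difference was 0.14 ± 0.13 (adjusted p = 0.837). Cy3 of the same sham/vehicle RNA read 545, 534 and 673 on obstruction/vehicle arrays against 151, 156 and 203 on sham/vehicle arrays, and Cy5 alone gave a larger rise of 4.14 and a larger fall of -4.02.

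Of the other 6 clade A genes, 5 passed in none of the comparisons: the elastase inhibitor Serpina1, Serpina3m, the kallikrein inhibitor Serpina4, the corticosteroid carrier Serpina6, and the adipokine Serpina12. Their differences between obstruction/vehicle and sham/vehicle ran from -0.18 for Serpina12 to 0.17 for Serpina1. Signal near background limits Serpina6, with Cy5 well above background on 6 of 12 arrays and Cy3 on 3, and Serpina3m, with Cy3 on 4. Serpina7, the thyroxine carrier, was higher in obstruction/Eviprostat than in obstruction/vehicle by 0.39 ± 0.13 (adjusted p = 0.0497), a call lost in 12 of the 22 alternatives run, among them without obstruction/vehicle replicate 3 (0.32, adjusted p = 0.178) and with the background outlier spots kept in (0.32, adjusted p = 0.135). Liver markers, read because the liver makes most plasma serpins, had a mean log2 ratio over 8 genes of 0.17 to 0.26 on obstruction/Eviprostat, 0.27 to 0.44 on obstruction/vehicle, -0.04 to 0.18 on sham/Eviprostat and -0.04 to 0.17 on sham/vehicle. Of these 8, 2 were higher in obstruction/vehicle than in sham/vehicle, beside 12.8% of all probes, and the median difference of the 8 was -0.07.

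The promoters of the 2 clade A genes that obstruction raised, both on chromosome 6, are shown with that of the collagen chaperone Serpinh1, a member known to answer heat shock (250 bases before to 50 after the start, RefSeq on build GRCr8). Of the 28 members 24 had an entry. Capitals mark matches, on either strand, to GAANNTTC (the core of a heat shock element) or TTCNNNGAA (a STAT element).
Serpina5 promoter: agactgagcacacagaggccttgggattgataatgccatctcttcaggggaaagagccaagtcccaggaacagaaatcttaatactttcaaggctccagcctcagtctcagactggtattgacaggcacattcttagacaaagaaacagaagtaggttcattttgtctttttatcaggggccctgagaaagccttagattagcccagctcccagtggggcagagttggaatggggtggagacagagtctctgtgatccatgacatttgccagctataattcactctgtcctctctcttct
Serpina3n promoter: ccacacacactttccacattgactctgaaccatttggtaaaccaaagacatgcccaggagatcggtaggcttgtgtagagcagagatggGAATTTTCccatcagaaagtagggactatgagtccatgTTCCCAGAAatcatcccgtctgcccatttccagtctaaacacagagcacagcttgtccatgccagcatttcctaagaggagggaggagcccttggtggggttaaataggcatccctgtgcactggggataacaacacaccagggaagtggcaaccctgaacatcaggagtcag
Serpinh1 promoter: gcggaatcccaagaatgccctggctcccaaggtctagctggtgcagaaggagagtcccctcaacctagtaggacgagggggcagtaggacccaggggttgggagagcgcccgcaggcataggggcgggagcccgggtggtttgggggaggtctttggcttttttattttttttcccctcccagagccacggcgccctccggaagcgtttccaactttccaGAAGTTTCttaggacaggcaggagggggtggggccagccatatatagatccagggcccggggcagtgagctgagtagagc
They come from chr6:128787831-128788130 for Serpina5 (plus strand), chr6:129088142-129088441 for Serpina3n (plus strand) and chr1:163062927-163063226 for Serpinh1 (minus strand). The Serpina5 window held neither motif, nor AGAACA (a steroid receptor hexamer), TGANTCA (AP-1) or TATAAA. The Serpina3n window held GAANNTTC from -161 to -154 and TTCNNNGAA from -123 to -115, which do not overlap, and the Serpinh1 window held GAANNTTC from -30 to -23. Of 33469 promoters of this length, 8.6% held GAANNTTC, 8.9% TTCNNNGAA, 20.7% AGAACA, 7.3% TGANTCA and 14.2% TATAAA. A match is a description of letters and not of binding.

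In clade B, obstruction raised 5 of 12 genes, lowered 1 and left 6 that did not pass. Serpinb1a, an inhibitor of the neutrophil proteases elastase, cathepsin G and proteinase 3, changed most. Its log2 ratio was -0.83, -0.79 and -0.92 on obstruction/Eviprostat, 2.88, 2.98 and 2.87 on obstruction/vehicle, -0.66, -0.55 and -0.69 on sham/Eviprostat, and -0.03, 0.02 and -0.0011 on sham/vehicle. No 2 groups overlapped, and both Eviprostat groups were below sham/vehicle. The rise in obstruction/vehicle over sham/vehicle was 2.92 ± 0.08 (adjusted p = 2.90e-10), and the difference between obstruction/Eviprostat and obstruction/vehicle was -3.76 ± 0.08 (adjusted p = 2.86e-11). Serpinb1a was also the 1 member lower in sham/Eviprostat than in sham/vehicle, by -0.62 ± 0.08 (adjusted p = 0.00116), a call lost with the background outlier spots kept in (-0.63, adjusted p = 0.0596) and with median centring (-0.44).

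Serpinb10, known from blood-forming cells, was well above background only on the obstruction/vehicle arrays. Its log2 ratio was 0.19, 0.18 and 0.11 on obstruction/Eviprostat, 1.18, 1.17 and 1.19 on obstruction/vehicle, 0.11, 0.19 and -0.08 on sham/Eviprostat, and 0.20, -0.07 and -0.29 on sham/vehicle. The log2 ratio was higher in obstruction/vehicle than in sham/vehicle by 1.23 ± 0.12 (adjusted p = 7.75e-06) and lower in obstruction/Eviprostat than in obstruction/vehicle by -1.02 ± 0.12 (adjusted p = 4.68e-05). Serpinb10 met the filter of 3 arrays only through the group where it was high, so its p-values and calls partly reflect that filter. With 1 side of each comparison not well above background, the sizes are not exact, and over the alternatives they ran from 0.93 to 3.15 and from -2.69 to -0.71. The second call was lost with the background outlier spots kept in (-0.71, adjusted p = 0.0783) and with median centring (adjusted p = 0.0847).

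Serpinb3, whose human counterparts inhibit cathepsins and other proteases, had log2 ratios of -0.04, 0.90 and 0.09 on obstruction/Eviprostat, 0.85, 1.51 and 1.42 on obstruction/vehicle, -0.12, 0.14 and 0.19 on sham/Eviprostat, and -0.03, 0.03 and 0.12 on sham/vehicle. It rose by 1.23 ± 0.23 in obstruction/vehicle over sham/vehicle (adjusted p = 0.00164). The obstruction/Eviprostat arrays overlapped with obstruction/vehicle because replicate 2, not well above background in Cy5, stood apart at 0.90; the difference was -0.94 ± 0.23 (adjusted p = 0.0104). With the background outlier spots kept in, both Serpinb3 calls were lost, at 0.78 (adjusted p = 0.0989) and -0.50 (adjusted p = 0.329). The second was also lost without obstruction/vehicle replicate 2 (-0.82, adjusted p = 0.0518) and without obstruction/Eviprostat replicate 3 (-0.83, adjusted p = 0.0528).

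Smaller changes were called for 4 more clade B genes. Serpinb9e (Serpinb9d in current RefSeq), whose relative Serpinb9 inhibits granzyme B in the mouse, was higher in obstruction/vehicle than in sham/vehicle by 0.80 ± 0.14 (adjusted p = 0.00106) and lower in obstruction/Eviprostat than in obstruction/vehicle by -0.57 ± 0.14 (adjusted p = 0.0124). Its Cy5 was well above background on 1 of 3 arrays each of obstruction/Eviprostat and sham/vehicle, and its Cy3 on 0 of 12, so these differences are not exact; the scanner software's log ratio gave 2.23 and -2.29. Median centring ended both calls (adjusted p = 0.121 and 0.279). The second was also lost with the background outlier spots kept in (-0.41, adjusted p = 0.211) and without obstruction/vehicle replicate 3 (-0.42, adjusted p = 0.0536). Serpinb6a, a cathepsin G inhibitor, was higher in obstruction/vehicle by 0.58 ± 0.11 (adjusted p = 0.00269), a call lost with median centring and with Cy5 alone. Its relative Serpinb6b was lower in obstruction/Eviprostat than in obstruction/vehicle by -0.81 ± 0.19 (adjusted p = 0.0101), a call lost with the background outlier spots kept in (-0.64, adjusted p = 0.0723). Serpinb8, a furin inhibitor in humans, was lower in obstruction/vehicle than in sham/vehicle by -0.32 ± 0.10 (adjusted p = 0.0368), a call lost in 12 of 22 alternatives, the background outlier spots kept in among them (-0.21, adjusted p = 0.307). Its Cy3 was well above background on 6 of 12 arrays, so this size is not exact. Serpinb2, Serpinb5 and Serpinb12 passed in no comparison on the brightest probe. Serpinb5, or maspin, an epithelial serpin with no known protease target, had a difference of 0.18 between obstruction/vehicle and sham/vehicle and of -0.15 between obstruction/Eviprostat and obstruction/vehicle. Another of its 3 probes, with -0.35 for the first of these, passed (adjusted p = 0.0484).

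Leukocyte markers were also high in obstruction/vehicle, where 12.8% of all probes were higher than in sham/vehicle. The mean log2 ratio of 6 neutrophil markers ran from 0.02 to 0.10 on obstruction/Eviprostat, 2.43 to 2.68 on obstruction/vehicle, -0.11 to 0.02 on sham/Eviprostat and -0.04 to 0.03 on sham/vehicle, with 5 of 6 higher in obstruction/vehicle. S100a8 and Mmp8 were well above background on 0 arrays of the other 3 groups. These 2 genes met the filter only through obstruction/vehicle, so the neutrophil count and mean partly reflect that filter. For 10 macrophage markers it ran from 0.40 to 0.53, 1.71 to 1.82, 0.00 to 0.03 and 0.01 to 0.11 in the same order of groups, with 9 of 10 higher in obstruction/vehicle. The part of either cell type in the clade B changes was not tested.

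**Figure D2:**
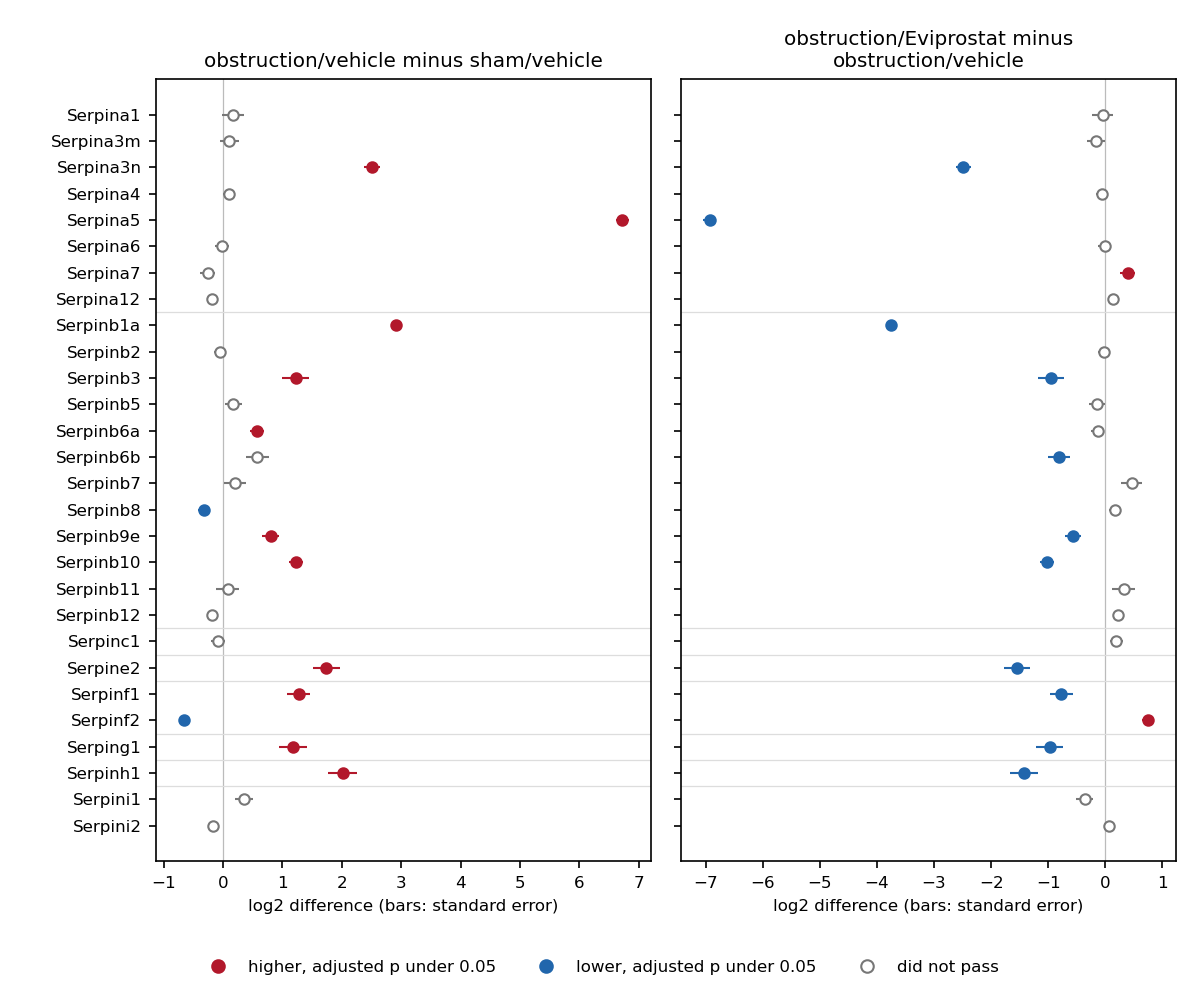
Log2 difference (points, bars are standard errors) of the 28 serpins between obstruction/vehicle and sham/vehicle on the left and between obstruction/Eviprostat and obstruction/vehicle on the right, by clade from A at the top to I; filled points passed limma at an adjusted p of 0.05. Serpina5 is farthest out in both panels, at 6.72 and -6.93, followed by Serpinb1a at 2.92 and -3.76.

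Serpine2, or protease nexin-1, is a clade E serpin that inhibits thrombin and urokinase, and in the mouse is abundant in the seminal vesicle. Its log2 ratio was 0.67, 0.11 and 0.29 on obstruction/Eviprostat, 2.18, 1.64 and 1.88 on obstruction/vehicle, 1.34, 0.56 and 0.77 on sham/Eviprostat, and 0.55, -0.06 and -0.0010 on sham/vehicle. The obstruction/vehicle arrays were the highest, and sham/Eviprostat lay between them and sham/vehicle without overlap. The difference between obstruction/vehicle and sham/vehicle was 1.74 ± 0.23 (adjusted p = 0.000121), and that between obstruction/Eviprostat and obstruction/vehicle was -1.55 ± 0.23 (adjusted p = 0.000374). In sham rats it was 0.73 ± 0.23 and did not pass (adjusted p = 0.165), and passed with the replicate block (adjusted p = 2.02e-05). The other Serpine2 probe moved less, by 0.55 ± 0.09 (adjusted p = 0.000556) and -0.67 ± 0.09 (adjusted p = 0.000139) for the first 2 comparisons.

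The clade F genes went opposite ways. Serpinf1, the pigment epithelium-derived factor, restrains vessel growth. It gave log2 ratios of 0.98, 0.50 and 0.53 on obstruction/Eviprostat, 1.69, 1.25 and 1.38 on obstruction/vehicle, 1.03, 0.47 and 0.39 on sham/Eviprostat, and 0.48, 0.01 and 0.01 on sham/vehicle. Obstruction/vehicle was above every other array, by 1.27 ± 0.20 over sham/vehicle (adjusted p = 0.000483), and obstruction/Eviprostat differed from it by -0.77 ± 0.20 (adjusted p = 0.0164). The second call was lost without obstruction/vehicle replicate 1 (-0.65) and without obstruction/Eviprostat replicate 2 (-0.69) or replicate 3 (-0.70), with the background outlier spots kept in (-0.71, adjusted p = 0.051) and with Cy5 alone (adjusted p = 0.0582). Serpinf2, the antiplasmin, was lower in obstruction/vehicle than in sham/vehicle by -0.65 ± 0.10 (adjusted p = 0.000357) and higher in obstruction/Eviprostat than in obstruction/vehicle by 0.75 ± 0.10 (adjusted p = 0.000139). The other Serpinf2 probe gave 0.04 ± 0.10 and -0.02 ± 0.10 for the same comparisons, and neither passed, so the direction of Serpinf2 rests on 1 of its 2 probes. That probe's calls were lost with median centring (adjusted p = 0.128 and 0.0766) and with Cy5 alone (adjusted p = 0.404 and 0.0677).

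Serping1, the clade G inhibitor of the complement proteases C1r and C1s, had log2 ratios of -0.18, 0.03 and -0.04 on obstruction/Eviprostat, 0.42, 1.15 and 1.16 on obstruction/vehicle, -0.48, 0.22 and 0.12 on sham/Eviprostat, and -0.63, -0.01 and -0.16 on sham/vehicle. The slide 1 array was the lowest in each group, and obstruction/vehicle overlapped with none. Serping1 rose by 1.18 ± 0.23 in obstruction/vehicle over sham/vehicle (adjusted p = 0.00249), and obstruction/Eviprostat differed from obstruction/vehicle by -0.97 ± 0.23 (adjusted p = 0.00957). Its other probe gave 1.23 ± 0.15 and -0.98 ± 0.15. With median centring neither call of the brighter probe held (1.22, adjusted p = 0.379, and -0.89, adjusted p = 0.658).

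Serpinh1, the clade H chaperone of the endoplasmic reticulum that binds procollagen, had log2 ratios of 0.97, 0.23 and 0.17 on obstruction/Eviprostat, 2.25, 1.65 and 1.72 on obstruction/vehicle, 0.83, 0.08 and 0.13 on sham/Eviprostat, and 0.03, -0.22 and -0.24 on sham/vehicle. The slide 1 array was the highest in each group. The rise in obstruction/vehicle over sham/vehicle was 2.02 ± 0.25 (adjusted p = 6.25e-05), and obstruction/Eviprostat differed from obstruction/vehicle by -1.42 ± 0.25 (adjusted p = 0.0012). Serpinc1, or antithrombin, Serpini1, or neuroserpin, and Serpini2 passed in no comparison without the replicate block, with differences between obstruction/vehicle and sham/vehicle of -0.08, 0.35 and -0.16. With the block Serpini1 was also lower in obstruction/Eviprostat than in obstruction/vehicle (-0.36, adjusted p = 0.0213).

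**Figure D3:**
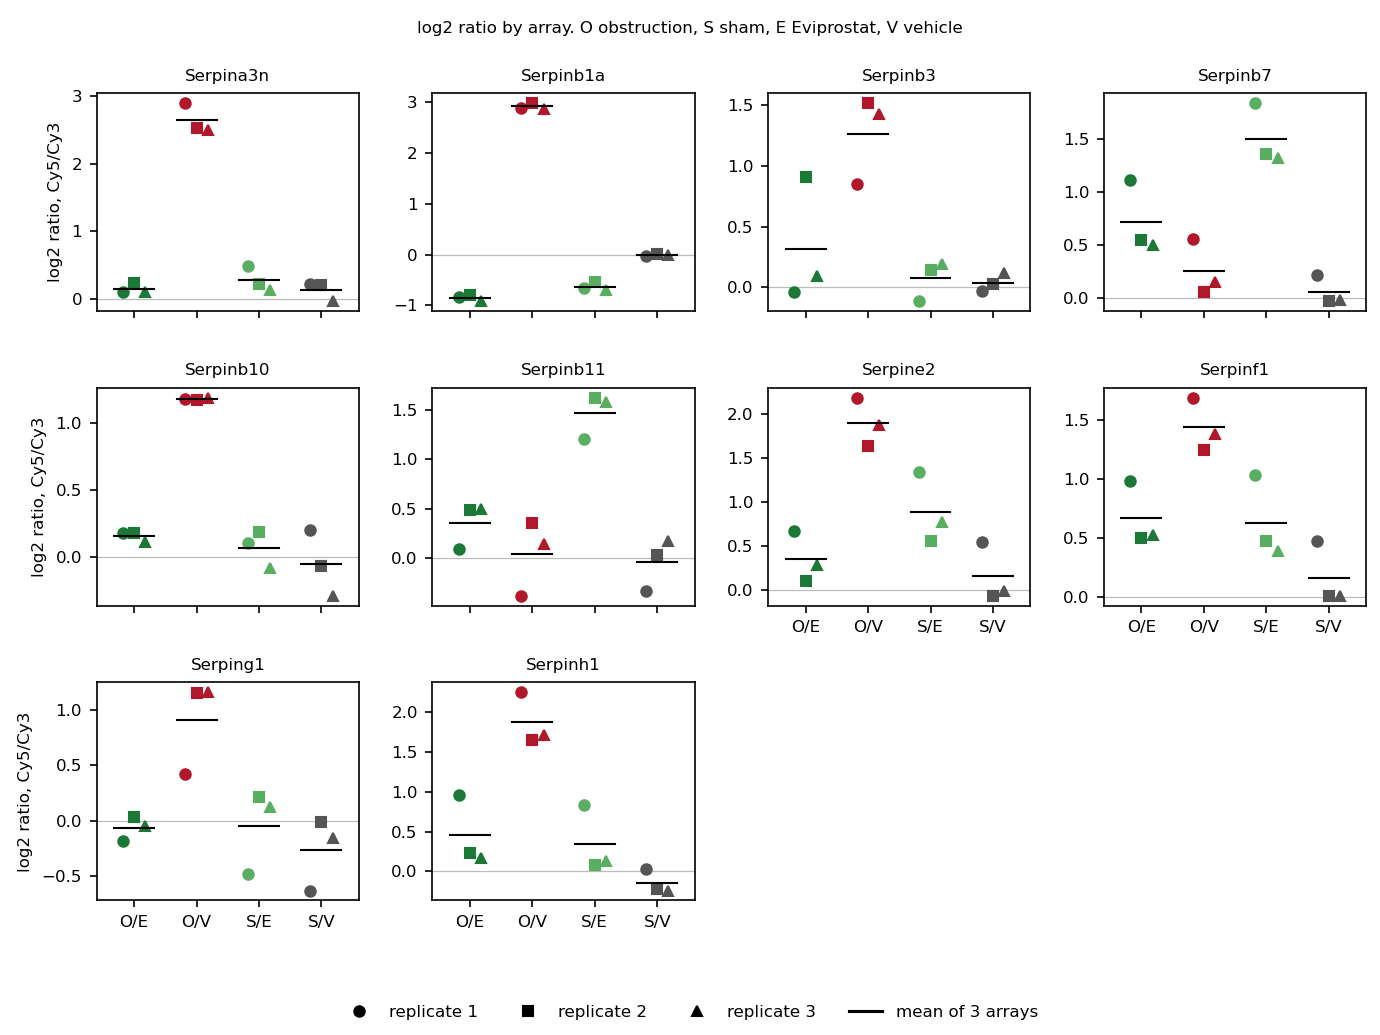
Log2 ratio (Cy5 over Cy3) on each of the 12 arrays for the 10 serpins other than Serpina5 with a called difference of at least 2-fold; points are arrays, marked by replicate, lines are means of 3 arrays, O is obstruction, S sham, E Eviprostat and V vehicle, and each panel has its own axis. Serpinb1a is at 2.87 to 2.98 on obstruction/vehicle and below 0 in both Eviprostat groups, and Serpinb7 and Serpinb11 are highest on sham/Eviprostat.

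In sham rats Eviprostat raised 3 of the 28 serpins and lowered 1, where 1.3% of all probes were higher and 0.922% lower in sham/Eviprostat than in sham/vehicle. Median centring gave 0.41% of probes higher and 0.0416% lower with 3 and 0 serpins, and the log ratio of the scanner software 4.91% and 4.58% with 7 and 1. The median difference of the 28 was 0.10. With the replicate block 7 serpins were higher and 1 lower, beside 5.76% and 4.94% of all probes: Serpinb6a at 0.29, Serpine2 at 0.73, Serpinf1 at 0.47 and Serpinh1 at 0.49 were added. Beside Serpina5, the genes raised without the block were 2 of clade B, both on chromosome 13. Serpinb11 had log2 ratios of 1.20, 1.63 and 1.58 on sham/Eviprostat and -0.33, 0.03 and 0.17 on sham/vehicle, a difference of 1.51 ± 0.20 (adjusted p = 0.0013) that did not pass with median centring (1.72, adjusted p = 0.0894). Serpinb7, known in humans from kidney mesangium and skin, had 1.84, 1.35 and 1.31 on sham/Eviprostat and 0.21, -0.03 and -0.02 on sham/vehicle, a difference of 1.45 ± 0.19 (adjusted p = 0.00138). The sham/Eviprostat arrays were above all sham/vehicle arrays for both genes.

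In obstructed rats Serpinb11 stood at 0.10, 0.49 and 0.49 on obstruction/Eviprostat and -0.38, 0.35 and 0.14 on obstruction/vehicle. Serpinb7 stood at 1.11, 0.54 and 0.49 on obstruction/Eviprostat and 0.56, 0.06 and 0.15 on obstruction/vehicle. Groups overlapped for both genes, with differences of 0.32 ± 0.20 (adjusted p = 0.324) for Serpinb11 and 0.46 ± 0.19 (adjusted p = 0.127) for Serpinb7. With the replicate block these passed (adjusted p = 0.00678 and 0.000408), as did Serpinb12 at 0.23 (adjusted p = 0.0337), which brought the serpins higher in obstruction/Eviprostat than in obstruction/vehicle to 5 of 28, beside 17% of all probes. Skeletal muscle markers also differed between the groups: their mean log2 ratio over 7 genes ran from -0.78 to -0.69 on obstruction/Eviprostat, -1.56 to -1.52 on obstruction/vehicle, 1.27 to 1.45 on sham/Eviprostat and -0.03 to 0.29 on sham/vehicle. Their part in the 2 genes' values was not tested.

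Between the groups on Eviprostat, 0 serpins were higher and 4 lower in obstruction/Eviprostat than in sham/Eviprostat, beside 1.41% of all probes higher and 1.78% lower (0.119% and 0.56% with median centring, and 5.65% and 6.21% with the log ratio of the scanner software). At an unadjusted p under 0.05, 7 members passed by limma in either direction, beside 13% of all probes, and with the replicate block Serpinf2 was higher at 0.33 (adjusted p = 0.0226) and Serpine2 lower at -0.53 (adjusted p = 0.00028), where 6.93% of all probes were higher and 6.9% lower. Besides Serpina5, the 4 were Serpinb11 with a difference of -1.11 ± 0.20 (adjusted p = 0.00844), Serpinb7 with -0.78 ± 0.19 (adjusted p = 0.0484) and Serpinb8 with -0.43 ± 0.10 (adjusted p = 0.0357). The Serpinb11 call was lost with median centring (-1.29, adjusted p = 0.237). The Serpinb7 and Serpinb8 calls were lost in 12 of 23 and 12 of 22 alternatives. With only the 6 arrays compared they had an adjusted p of 0.111 and 0.0835, and with the background outlier spots kept in Serpinb8 had -0.40 (adjusted p = 0.117).

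Whether Eviprostat acted differently in obstructed and sham rats was tested as the difference of its 2 effects. It passed for 12 serpins, 11 lower and 1 higher in obstructed rats, where 9.72% of all probes were lower and 6.11% higher. Log ratios as the scanner software gave them put 14.3% lower and 18.1% higher, with 13 and 3 serpins, and median centring 4.89% and 0.668% with 8 and 0. After Serpina5 it was largest for Serpinb1a (-3.13 ± 0.11, adjusted p = 3.81e-09), Serpina3n (-2.63 ± 0.19, adjusted p = 1.08e-06) and Serpine2 (-2.27 ± 0.32, adjusted p = 0.000359). Serpinh1 followed at -1.91 ± 0.35 (adjusted p = 0.00214). Among these 11 the effects took different forms. Without the block, the drug's effect passed only in sham rats for Serpinb7 and Serpinb11. For the other 7 of the 11 besides Serpina5 and Serpinb1a it passed only in obstructed rats. In the fit with the block it passed in both operations for Serpinb7, Serpinb11, Serpine2, Serpinf1 and Serpinh1 as well. With the block, under which 17.5% of all probes were lower and 14.7% higher, 3 more differed: Serpinb3 (-0.98, adjusted p = 0.0018), Serpinb6a (-0.42, adjusted p = 0.0132) and Serpinb6b (-0.68, adjusted p = 0.0105). The Serpinb7 and Serping1 differences were lost in 7 and 8 of 22 alternatives, most of them with 1 array left out. With the background outlier spots kept in, the differences of Serpinb10 (-0.88, adjusted p = 0.128), Serpinb9e (-0.77, adjusted p = 0.0949) and Serping1 (-1.12, adjusted p = 0.0507) did not pass. Median centring ended those of Serpinb10 (adjusted p = 0.401), Serpinb9e (0.389), Serpinb11 (0.17), Serpinf2 (0.131) and Serping1 (0.628). Cy5 alone ended those of Serpinf2 (adjusted p = 0.0986) and Serpinb7 (0.162). Serpina5 and Serpinb1a passed in both operations, with opposite signs for Serpina5.

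**Figure D4:**
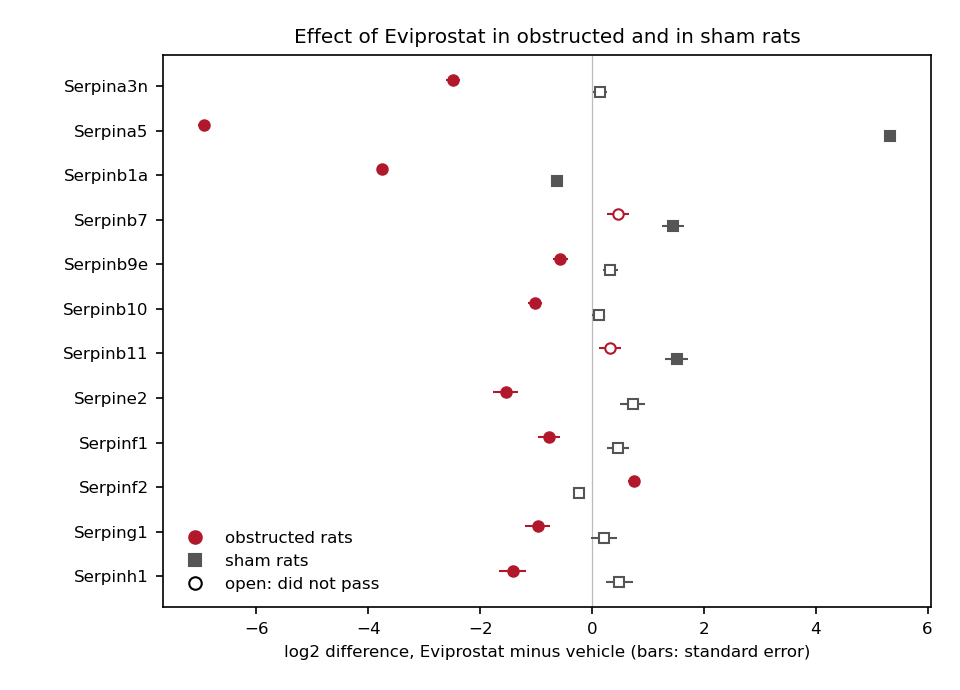
Log2 difference between Eviprostat and vehicle (points, bars are standard errors) in obstructed rats (circles) and sham rats (squares) for the 12 serpins whose 2 effects differed; open symbols did not pass limma at an adjusted p of 0.05. Serpina5 is at -6.93 in obstructed and 5.33 in sham rats, and the others lie between -3.76 and 1.51.

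Proteases and partners of the serpins were read from lists of known pathway members. No list was tested as a set. List and marker counts below stand beside 12.8% of all probes higher and 8.58% lower in obstruction/vehicle than in sham/vehicle. Between obstruction/Eviprostat and obstruction/vehicle the shares were 7.2% higher and 11.7% lower, and in sham/Eviprostat over sham/vehicle 1.3% were higher. Of 8 plasminogen activation genes 6 were higher and 0 lower in obstruction/vehicle than in sham/vehicle (median 0.98). The 4 largest called differences were those of Anxa2, a plasminogen and activator receptor (2.77), Plaur, the urokinase receptor (2.52), Plat, tissue plasminogen activator (1.22), and Lrp1, which clears serpin complexes (1.01). In obstruction/Eviprostat 5 of the 8 were lower than in obstruction/vehicle and 0 higher. Of 16 coagulation genes 4 were higher and 1 lower with obstruction (median 0.09), led by F3, tissue factor (2.23), Procr, the protein C receptor (2.22), Thbd, thrombomodulin (1.55), and Klkb1, plasma prekallikrein (0.84). Klkb1 was well above background on no array of obstruction/Eviprostat or sham/Eviprostat, and Plaur on no array of sham/Eviprostat. Proc itself, whose activated product Serpina5 inhibits, had a difference of 0.03 (adjusted p = 0.863).

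Of 17 collagens and collagen-processing partners of Serpinh1, 11 were higher and 1 lower in obstruction/vehicle than in sham/vehicle (median 0.77), and 11 were lower and 0 higher in obstruction/Eviprostat than in obstruction/vehicle. The largest called differences with obstruction were those of the fibrillar collagen genes Col1a1 (3.16), Col3a1 (2.72) and Col1a2 (2.14) and of P4ha1, a collagen prolyl hydroxylase subunit (2.32). Col1a1 is also among the 6 smooth muscle and stroma markers, whose mean log2 ratio ran from 0.27 to 0.37 on obstruction/Eviprostat, 1.64 to 1.71 on obstruction/vehicle, 0.42 to 0.59 on sham/Eviprostat and -0.21 to -0.02 on sham/vehicle. All 6 were higher in obstruction/vehicle, and their part in the rise of Serpinh1, Serpine2 and Serpinf1 was not tested. Urothelial markers, 4 of 5 of them higher in obstruction/vehicle, had means of 0.10 to 0.29 on obstruction/Eviprostat, 2.06 to 2.23 on obstruction/vehicle, 0.36 to 0.56 on sham/Eviprostat and -0.07 to 0.28 on sham/vehicle. Endothelial markers, 3 of 5 higher and 1 lower there, ranged from -0.09 to -0.06, 0.38 to 0.46, 0.04 to 0.14 and -0.06 to -0.03 in the same order. The part of these cells was not tested either.

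Among proteases that clade B and A serpins act on, 3 of 13 leukocyte and mast cell genes were higher in obstruction/vehicle than in sham/vehicle and 0 lower (median 0.08): the mast cell chymases Mcpt1 (1.00) and Cma1 (0.91) and granzyme A, Gzma (0.77). Ctsg and Prtn3, neutrophil protease targets of Serpinb1a, had differences of -0.21 (adjusted p = 0.155) and -0.06 (adjusted p = 0.900). Of 18 epithelial serine proteases 5 were higher and 0 lower (median -0.0017), led by Prss22 (2.63), Htra1 (1.74), the kallikrein Klk1 (1.66) and Klk7 (1.41). Klk1 was the 1 gene of this list that rose in sham/Eviprostat over sham/vehicle (1.31). Of 4 complement proteases held by Serping1, C1s (1.60) and C1r (1.14) were higher in obstruction/vehicle.

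Inhibitors outside the serpin family included larger differences than most serpins. Of 15 measured, 7 were higher and 3 lower in obstruction/vehicle than in sham/vehicle (median 0.10). Slpi, a secreted inhibitor of leukocyte elastase, was higher by 5.26, and like Serpina5 it rose in sham/Eviprostat over sham/vehicle (2.97) and was lower in obstruction/Eviprostat than in obstruction/vehicle (-4.89). The metalloproteinase inhibitors Timp1 and Timp2 were higher in obstruction/vehicle by 4.33 and 1.90, and A2m, alpha-2-macroglobulin, by 1.38. In obstruction/Eviprostat Timp1 and A2m were higher than in sham/Eviprostat, by 2.15 (adjusted p = 1.61e-07) and 1.97 (adjusted p = 8.43e-08).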

How the data were processed

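Per the labels' protocols, total RNA of prostate tissue pooled within each group was labelled, 300 ng for obstruction/Eviprostat, obstruction/vehicle and sham/Eviprostat and 1500 ng for sham/vehicle, and hybridised to 12 two-colour Agilent rat arrays. The larger amount was that of sham/vehicle alone, so the effect of amount cannot be told apart from that of this group. Cy3 held sham/vehicle RNA on every array and no dyes were swapped, so dye effects were removed only by comparing groups with the sham/vehicle arrays. The deposited scanner files give spot intensity, read with Feature Extraction 9.5.1.1 according to their headers, and a log10 ratio of Cy5 over Cy3. The deposited series table holds the same log10 ratio, with a largest difference of 0, and array medians of 0 on 9 arrays and between -0.00886 and -0.00115 on the 3 obstruction/vehicle arrays. Its centring is not given in the sources used here.

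From the mean and background intensities, background was corrected with normexp (offset 50), and arrays were normalised within themselves by loess (span 0.3) with limma 3.58.1 in R 4.3.3. Control spots and outlier spots (0.365% of spots) were left out, and spots with a background outlier mark were left out before normexp, a choice made after seeing the data. Spots of a probe were averaged. Of 41012 probes 36098 had Cy5 well above background on at least 3 of 12 arrays. One fit over all 12 arrays with 4 group means (8 residual degrees of freedom) gave each difference, with Benjamini-Hochberg adjustment over all kept probes. The number of arrays limits the precision. The procedure was tested on simulated data, and the outcome is not given here. Names come from the array, matched to RefSeq by accession (10735 probes), current symbol (5571), synonym (3729) or array symbol alone (158); 20819 had none.

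Arrays lay on 3 slides, numbered as the replicates. Each group kept 1 position on every slide, and the effect of position cannot be told apart from that of the group. Deviations from group means correlated between same-numbered arrays of different groups in all 18 pairs (r from 0.389 to 0.815), so the numbers pair the arrays, and the replicate block is the slide. Alternatives were the scanner software's log ratio, median centring, Cy5 alone, other filters, probe averaging, the block, slides 2 and 3 alone, array weights, only the arrays compared, the marked spots kept in, and each array left out.

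One serpin on the array is not reported here. The members and lists were chosen with earlier results of these data known. Given in full were Serpina5 and serpins with a called difference of at least 2-fold. From each list the 4 largest called differences between obstruction/vehicle and sham/vehicle are named. Proc, Ctsg, Prtn3, the single markers and further comparisons of Timp1, A2m and Slpi were chosen after their values were seen.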

Additional observations from a re-analysis of the deposited data

Results flagged for a closer look

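For 12 serpins the effect of Eviprostat (log2 difference from vehicle) differed between obstructed and sham rats by limma's test of the difference itself, adjusted over all probes. The p-values measure the spread between arrays of pooled tissue and not between animals. For Serpina5 the effect was -6.93 in obstructed and 5.33 in sham rats, and differed by -12.26 ± 0.16 (adjusted p = 2.58e-13). For Serpinb1a it was -3.76 and -0.62, a difference of -3.13 ± 0.11 (adjusted p = 3.81e-09). For Serpina3n it was -2.49 in obstructed and 0.14 in sham rats, a difference of -2.63 ± 0.19 (adjusted p = 1.08e-06).

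Serpine2 had effects of -1.55 in obstructed and 0.73 in sham rats, differing by -2.27 (adjusted p = 0.000359). Serpinh1 had -1.42 and 0.49, differing by -1.91 (adjusted p = 0.00214). Serpinf1 had -0.77 and 0.47, differing by -1.23 (adjusted p = 0.00932), and Serping1 had -0.97 and 0.22, differing by -1.19 (adjusted p = 0.0252). Serpinb10, well above background only on obstruction/vehicle arrays, had -1.02 and 0.12, differing by -1.14 (adjusted p = 0.000414). Serpinb9e had -0.57 and 0.33, differing by -0.90 (adjusted p = 0.00757).

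The effect was larger in sham rats for a pair of clade B genes. Serpinb11 had 0.32 in obstructed and 1.51 in sham rats, differing by -1.19 (adjusted p = 0.0116), and Serpinb7 had 0.46 and 1.45, differing by -0.99 (adjusted p = 0.0266). Serpinf2 had 0.75 in obstructed and -0.23 in sham rats, differing by 0.98 (adjusted p = 0.000337) on its brighter probe and by -0.03 on the other, which did not pass. With median centring the differences of Serpinb10, Serpinb9e, Serpinb11, Serping1 and Serpinf2 did not pass.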

How the results depend on the processing

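Serpina5 kept its call and sign in all 114 alternative values. Of 41 called differences of other serpins, 16 held under every alternative and 25 were lost under at least 1 (98 of 921 values). No value reversed. The replicate block lost no call and added 15; those that moved a count or a named result are given in the report, and it changed no other call. Signal near background limits Serpinb10, Serpinb9e and Serpinb3, among others.

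Counts of serpins moved as follows, and the shares of all probes moved with the settings too. Higher in obstruction/vehicle than in sham/vehicle (11) ran from 8 to 14, beside 7.05% to 26.4% of all probes. Lower in obstruction/Eviprostat than in obstruction/vehicle (11) ran from 6 to 14, beside 5.82% to 24.9%. The 11 serpins with a lower Eviprostat effect in obstructed rats became 8 to 15, beside 4.89% to 23%. Lower in obstruction/vehicle than in sham/vehicle (2) became 0 with median centring or Cy5 alone, 1 with the all-array filter, only the arrays compared or marked spots kept in, and 5 with slides 2 and 3 alone or array weights. The share of all probes lower, 8.58%, became 1.35% with median centring, 8.33% with Cy5 alone and 11.1% with the all-array filter. Only the arrays compared gave 6.19%, marked spots kept in 4.45%, slides 2 and 3 alone 20.2% and array weights 21.6%. Higher in obstruction/Eviprostat than in obstruction/vehicle (2) became 6 with the scanner software's log ratio or slides 2 and 3, 0 with median centring or Cy5 alone, 1 with no filter, the all-array filter, only the arrays compared or marked spots kept in, 5 with the replicate block and 7 with array weights. The share of all probes higher there, 7.2%, became 21.7% on the scanner's own ratios and 18.5% on slides 2 and 3. Median centring gave 1.12%, Cy5 alone 6.59%, no filter 6.13% and the all-array filter 9.32%. It was 6.27% for only the arrays compared, 3.9% for marked spots kept in, 17% for the replicate block and 19.8% for array weights. Lower in that comparison (11) became 6 with marked spots kept in, where the share of all probes lower, 11.7%, became 5.89%.

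Higher in sham/Eviprostat than in sham/vehicle (3) became 7 with the scanner's log ratio or the replicate block, 10 with slides 2 and 3 and 9 with array weights, while the share of all probes, 1.3%, became 4.91%, 5.76%, 9.35% and 9.97%. Lower there (1) became 0 with median centring or marked spots kept in and 2 with slides 2 and 3 or array weights. The share of all probes, 0.922%, became 0.0416%, 0.659%, 7.16% and 8.24% in the same order of settings. Higher in obstruction/Eviprostat than in sham/Eviprostat (0) became 1 with the replicate block and 2 with slides 2 and 3 or array weights. The share of all probes, 1.41%, became 6.93%, 9.81% and 10.8% in that order. Lower in the same comparison (4) became 2 with median centring, Cy5 alone or only the arrays compared. The share of all probes, 1.78%, became 0.56%, 1.5% and 1.39% in that order. The 1 serpin with a higher Eviprostat effect in obstructed rats became 3 with the scanner's log ratio, slides 2 and 3 or array weights, and 0 with median centring or Cy5 alone. The share of all probes, 6.11%, became 18.1%, 16.6%, 17.7%, 0.668% and 5.21% in that order.

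With each array left out in turn, serpins higher and lower in obstruction/vehicle than in sham/vehicle numbered 11 to 12 and 1 to 2 (1, with Serpinb8 lost, without sham/vehicle replicate 1 or 3, sham/Eviprostat replicate 3, or replicate 2 or 3 of either obstructed group). The shares of all probes ran from 10.1% to 14.7% and from 6.03% to 9.62%. In obstruction/Eviprostat against obstruction/vehicle the serpins numbered 1 to 2 and 9 to 12 (1 higher, with Serpina7 lost, without sham/vehicle replicate 3, or replicate 2 or 3 of any other group). Here the shares of all probes ran from 4.7% to 8.14% and from 8.93% to 13.6%. In sham/Eviprostat against sham/vehicle the serpins stayed at 3 and 1, beside 0.748% to 1.85% and 0.41% to 1.57% of all probes. In obstruction/Eviprostat against sham/Eviprostat the serpins numbered 0 and 2 to 4 (2, with Serpinb7 and Serpinb8 lost, without replicate 2 of any group or replicate 3 of any group but obstruction/vehicle). All probes had shares of 0.562% to 2.15% and 0.986% to 2.52%. For the difference of the Eviprostat effects the serpins numbered 1 and 9 to 12, beside 4.36% to 6.72% and 7.98% to 11.7% of all probes. A group left with 2 arrays is assumed to vary like the others.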
